A study of Mus musculus with 20 samples.

Results

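The genes described here are 39 genes that mark microglia, the resident macrophages of the brain, or that carry their surface signals inward. They were taken by gene symbol from the annotation of the array, with older aliases matched by gene identifier. Where a gene had several probe sets, meaning several groups of oligonucleotides against it, the one with the highest mean log2 signal over all arrays stood for the gene. A probe set with 1 gene symbol was found for 38 of the 39 genes, and 37 were bright enough to be tested, out of 13351 genes tested in all. Lyn, a Src-family kinase, had no such probe set and was not analysed here, and Cd86, a costimulatory ligand, lay below the signal limit of 184.396.

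The samples were neocortex from 20 male mice of the hybrid B6C3F1 (B6/C3H F1), 1 array per mouse and 5 mice per group. Old mice fed both α- and γ-tocopherol, each at 500 mg/kg of diet per the sample labels and the series' design text (the mixture), old mice fed α-tocopherol alone at 1000 mg/kg, and old controls on the control diet were 30 months old. Young controls, also on the control diet, were 5 months old. The supplements, both forms of vitamin E, were given from 15 months of age. All mice were kept 1 to a cage and the labels name no transgene or deletion in any group. The tissue was not sorted, so each value covers all cells of the tissue taken, and fewer microglia cannot be told apart from less RNA per microglial cell. Values are scaled signals of the array without a unit, and mouse numbers 1 to 5 are those of the labels.

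Microglia arise from yolk-sac progenitors under the transcription factors PU.1 (gene Spi1), RUNX1 and IRF8, and keep their identity in the brain through SALL1 and TGF-β signalling. Survival depends on the receptor CSF1R and its ligands CSF1 and IL34. The purine receptor P2RY12 and the fractalkine receptor CX3CR1 let the cells sense injured and active neurons, and Fc receptors, Toll-like receptors and their kinases and phosphatases set how strongly they respond.

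Promoters of 31 of the 39 genes were listed in RefSeq (assembly GRCm38.p6) as windows of 300 bases, 250 before the start and 50 after it. PU.1 binds purine-rich sites with the core GAGGAA, and this core, on either strand, was in 18 of the 31 member promoters (58.1%), against 31.3% of the promoters of all 27025 listed genes. The longer GAGGAAGT, which contains that core, was in 5 of 31 (16.1%), against 3.69% of all genes. A match is a run of letters, not a binding site. Shown here are the promoters of the 4 genes, of 10 that rose in old against young controls, in whose listed windows the core was found, and that of P2ry12, which fell and has no GAGGAA in its window. The core was also in members that did not rise, such as Cd33, Siglech and Vav1. A link between core and direction was not tested. Capitals mark GAGGAA or, where the core lies on the other strand, TTCCTC. The windows are Inpp5d at chr1:87620062-87620361 (plus strand), Laptm5 at chr4:130913066-130913365 (plus strand), Fcrls at chr3:87263475-87263774 (minus strand), Aif1 at chr17:35176003-35176302 (minus strand) and P2ry12 at chr3:59262936-59263235 (minus strand).
Inpp5d: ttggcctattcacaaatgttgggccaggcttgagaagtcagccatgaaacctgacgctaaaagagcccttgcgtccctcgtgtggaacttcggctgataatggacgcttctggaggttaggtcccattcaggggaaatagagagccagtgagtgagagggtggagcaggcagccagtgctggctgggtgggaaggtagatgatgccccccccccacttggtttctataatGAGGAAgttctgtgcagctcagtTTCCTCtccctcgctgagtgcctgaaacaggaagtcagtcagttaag
Laptm5: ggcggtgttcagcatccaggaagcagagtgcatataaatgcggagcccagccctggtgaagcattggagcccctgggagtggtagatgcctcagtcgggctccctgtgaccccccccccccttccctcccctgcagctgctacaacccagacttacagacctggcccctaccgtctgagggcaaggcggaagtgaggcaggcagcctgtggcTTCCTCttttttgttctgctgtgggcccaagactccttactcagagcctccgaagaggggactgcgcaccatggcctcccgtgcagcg
Fcrls: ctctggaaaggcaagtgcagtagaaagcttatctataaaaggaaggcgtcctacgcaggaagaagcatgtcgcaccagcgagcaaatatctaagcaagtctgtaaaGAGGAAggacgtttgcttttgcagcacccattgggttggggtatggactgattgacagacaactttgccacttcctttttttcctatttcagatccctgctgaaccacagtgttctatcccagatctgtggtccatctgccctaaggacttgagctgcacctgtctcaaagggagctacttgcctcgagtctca
Aif1: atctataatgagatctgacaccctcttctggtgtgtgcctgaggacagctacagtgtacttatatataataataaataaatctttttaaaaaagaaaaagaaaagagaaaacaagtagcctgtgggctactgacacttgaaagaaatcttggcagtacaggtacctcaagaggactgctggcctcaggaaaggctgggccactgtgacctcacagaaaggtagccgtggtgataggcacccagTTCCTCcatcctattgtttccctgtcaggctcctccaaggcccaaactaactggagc
P2ry12: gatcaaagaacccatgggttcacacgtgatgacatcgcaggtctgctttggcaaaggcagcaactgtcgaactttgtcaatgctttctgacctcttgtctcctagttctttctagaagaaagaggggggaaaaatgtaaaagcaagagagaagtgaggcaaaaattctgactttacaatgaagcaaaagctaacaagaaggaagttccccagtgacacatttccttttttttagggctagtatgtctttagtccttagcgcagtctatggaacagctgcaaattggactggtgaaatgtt

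All 8 measured genes of a list of neocortical excitatory neuron markers passed the signal limit, and their summed signal moved with the groups, as given beside the results. All 5 measured genes of a list of striatum markers passed the limit as well. Their summed signal was 19743 to 26216 in old controls, 19394 to 24555 in young controls, 19120 to 22575 on α-tocopherol and 19300 to 22715 on the mixture. None of the 5 passed the test in any of the 6 comparisons. Whether striatum was part of the samples was not tested. Old control mouse 3 stood apart. Its summed signal over 9 monocyte and neutrophil markers was 6684.9, against 1451.2 to 1773.8 in the other old controls, with Plac8 at 3370.1 and S100a8 at 1028.1, and its median correlation with its own group was the lowest of the 20 arrays (0.965). It was the highest of the 5 old controls for 18 of 37 members (48.6%), against 26.7% of all genes. That trait was not its own, as mouse 3 had 45.9% on the mixture (22.9% of all genes) and 43.2% on α-tocopherol (27.5%). Arrays also differed with age. The median signal was 291.6 ± 12.4 in old controls and 320.8 ± 6.2 in young controls (SD, n = 5 each, exact permutation p = 0.007937, adjusted over 24 tests 0.0381), and the 3′/5′ signal ratio of β-actin, which increases as RNA breaks down, was 2.04 ± 0.34 and 1.53 ± 0.14 (exact permutation p = 0.02381, adjusted 0.0816). The signal of 18S ribosomal RNA was 886.6 ± 155.2 in old controls and 394.4 ± 98.0 in young controls (exact permutation p = 0.007937, adjusted 0.0381), and the 3′/5′ ratio of GAPDH was 0.957 ± 0.034 and 0.874 ± 0.054 (exact permutation p = 0.03175, adjusted 0.0952).

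Most microglial genes had more signal in old controls than in young ones. Of the 37 members, 10 rose and 2 fell by limma at an adjusted p under 0.05. The share that rose was 27.0%, against 12.4% of all genes tested, and the share that fell was 5.41%, against 10.4%. The difference was above 0 for 30 of 37 members, against 46.4% of all genes, and its median was 0.18 on the log2 scale, against -0.02. In 9 members all 5 old controls lay above all 5 young controls, a pattern seen in 9.14% of all genes. The role groups differed in count: 5 of 14 homeostatic receptors and secreted genes rose and 1 fell, 3 of 6 innate sensing and leukocyte membrane genes rose, 1 of 4 transcription factors rose, 1 of 6 inhibitory receptors, phosphatases and exchange factors rose, 1 of 3 TGF-β and TAM receptor genes fell, and none of the 4 Fc receptors passed the test (lowest adjusted p = 0.221, and 0 of 4 at an unadjusted p under 0.05). With the β-actin ratio in the fit 5 members rose and 0 fell (13.5% higher, against 4.75% of all genes higher and 3.92% lower), and the 5 were Sall1, Aif1, Olfml3, Fcrls and Ly86. With arrays set to equal medians 14 rose and 0 fell (37.8% higher, against 23.0% of all genes higher and 3.36% lower). Without old control mouse 3, 9 rose and 0 fell (24.3% higher, against 11.4% of all genes higher and 9.43% lower).

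**Figure D1:**
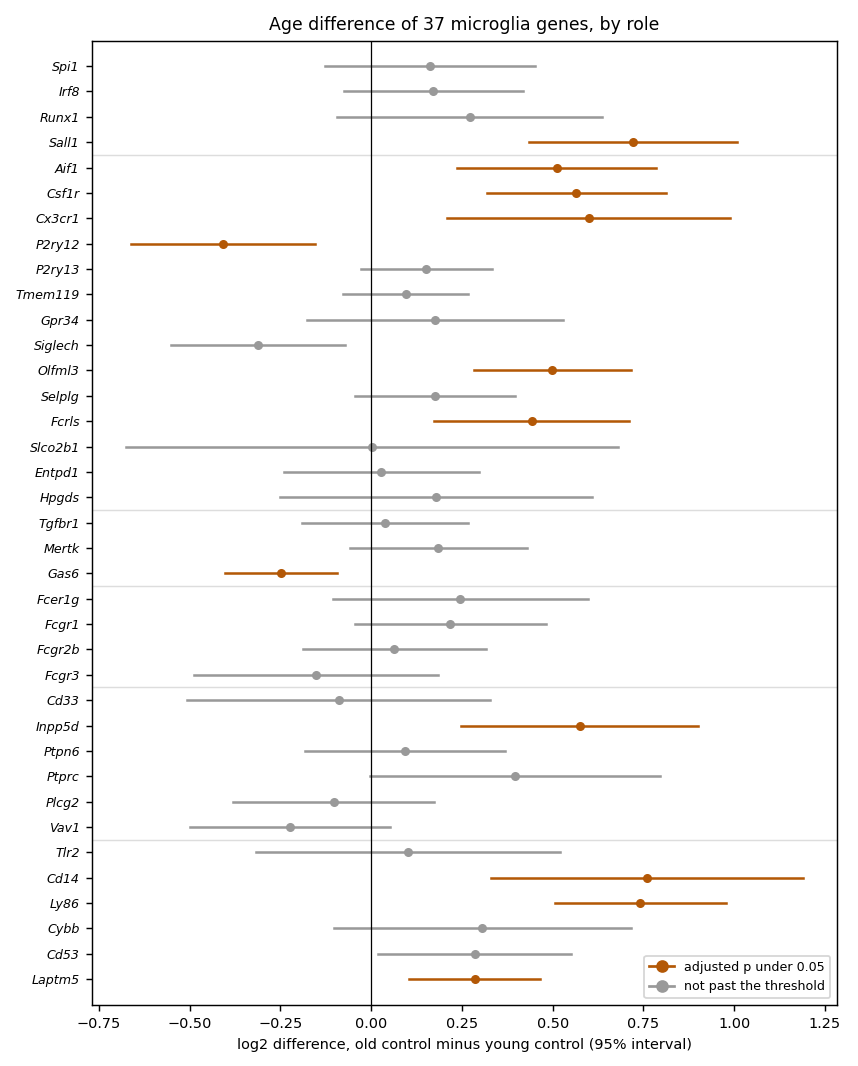
Log2 difference of old control minus young control neocortex for the 37 tested microglia genes (horizontal axis, with 95% intervals from limma), grouped by role from top to bottom: transcription factors, homeostatic receptors and secreted genes, TGF-β and TAM genes, Fc receptors, inhibitory receptors, phosphatases and exchange factors, and innate sensing and leukocyte membrane genes. The 10 rises and 2 falls past an adjusted p of 0.05 are in orange, and Sall1, Cd14 and Ly86 lie above 0.7.

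Among the transcription factors, Sall1, which holds microglia in their resident state, had signals of 499.0, 626.7, 501.0, 544.1 and 523.4 in old controls, against 280.7, 396.2, 269.6, 403.3 and 274.0 in young controls. The groups did not overlap (log2 difference 0.72 ± 0.14 SE, adjusted p = 0.00105). Spi1, the gene of PU.1, had signals of 421.0, 435.6, 582.8, 377.4 and 388.4 in old controls and 370.6, 392.0, 421.7, 429.2 and 332.4 in young controls. These overlapped, with old control mice 2 and 3 above the young range (0.16 ± 0.14 SE, adjusted p = 0.424). Irf8 and Runx1 differed by 0.17 and 0.27 (adjusted p = 0.31 and 0.276).

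Of the receptors that define microglia, Csf1r rose. It had signals of 9633.0, 8005.8, 9326.4, 8882.7 and 7829.9 in old controls, against 5968.0, 5773.1, 5381.8, 6217.4 and 6082.9 in young controls. Every old control lay above every young control (0.57 ± 0.12 SE, adjusted p = 0.00199), but the call was lost with the β-actin ratio in the fit (0.35, adjusted p = 0.0959) and with the mean of all its probe sets (0.22, adjusted p = 0.111). Cx3cr1 had signals of 1243.6, 1525.4, 1662.6, 1586.6 and 1263.8 in old controls, against 785.1, 1020.7, 888.3, 952.4 and 1137.4 in young controls. The groups did not overlap (0.60 ± 0.19 SE, adjusted p = 0.0248), but the call was lost without old control mouse 3 (0.55, adjusted p = 0.0552), without old control mouse 4 (0.57, adjusted p = 0.0552) and without young control mouse 1 (0.53, adjusted p = 0.0608) or 3 (0.58, adjusted p = 0.05). With the β-actin ratio in the fit it was 0.36 (adjusted p = 0.322).

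P2ry12, the purine receptor that guides microglial processes, went the other way. Its signals were 1036.4, 1380.8, 924.7, 1344.9 and 1364.8 in old controls, against 1690.2, 1764.9, 1632.8, 1279.3 and 1632.9 in young controls. Young control mouse 4 lay inside the old range and the other young controls above it (-0.41 ± 0.12 SE, adjusted p = 0.0191). Old control mouse 3 was the lowest mouse, and without it the difference was -0.32 with an adjusted p of 0.0597. With arrays set to equal medians, which moves the median of all genes from -0.02 to 0.11, it was -0.28 (adjusted p = 0.119), and with the β-actin ratio in the fit it was -0.08 (adjusted p = 0.656). Siglech, a sialic-acid-binding lectin of microglia, had a difference of -0.31 that missed the threshold (adjusted p = 0.0539). Tmem119, a membrane protein that separates microglia from other macrophages, had signals of 1699.8, 1481.4, 1678.1, 1448.7 and 1778.9 in old controls and 1519.5, 1426.8, 1523.8, 1693.6 and 1396.9 in young controls. The groups overlapped (0.09 ± 0.08 SE, adjusted p = 0.429).

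Aif1, which encodes the actin-binding protein IBA1 used to stain microglia, had signals of 694.1, 757.5, 612.6, 789.1 and 742.2 in old controls, against 680.5, 406.9, 499.6, 580.6 and 380.0 in young controls. All but old control mouse 3 lay above the young range (0.51 ± 0.13 SE, adjusted p = 0.00822). Olfml3, a secreted matrix-associated protein, had signals of 787.3, 738.6, 834.5, 798.7 and 779.0 in old controls, against 625.6, 601.6, 522.5, 579.8 and 450.2 in young controls. There was no overlap (0.50 ± 0.10 SE, adjusted p = 0.00192). Fcrls, an Fc-receptor-like scavenger protein of mouse microglia, had signals of 593.7, 778.6, 681.6, 708.9 and 711.1 in old controls, against 515.9, 533.6, 568.6, 483.1 and 434.5 in young controls. Again no mice overlapped (0.44 ± 0.13 SE, adjusted p = 0.0174), and without young control mouse 5 the adjusted p was 0.0501. The other homeostatic genes, P2ry13, Gpr34, Selplg, Slco2b1, Entpd1 and Hpgds, had differences of 0.00 to 0.18 and none passed the test.

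**Figure D2:**
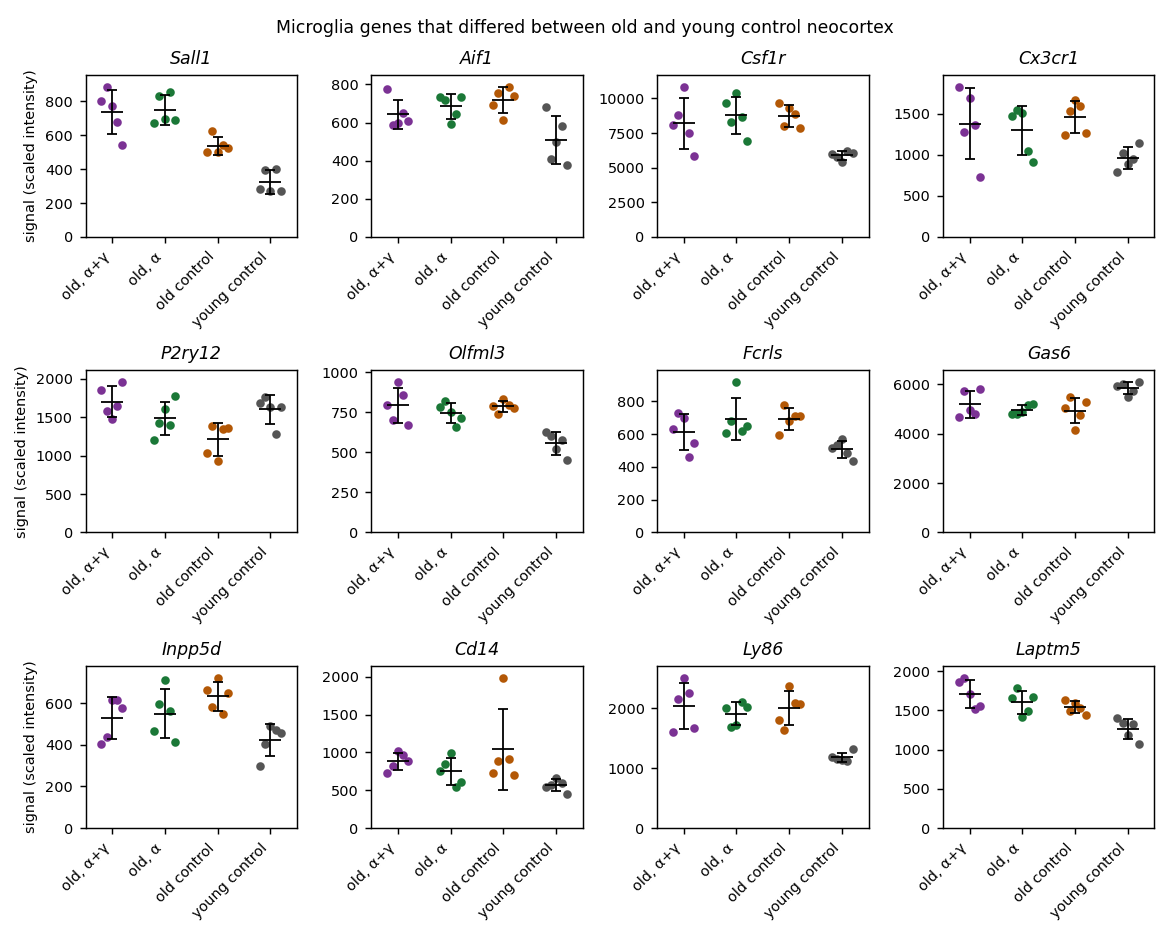
Signal of each mouse (vertical axis, linear, from 0) for the 12 microglia genes that differed between old and young controls, with groups from left to right: old mice on α- and γ-tocopherol, old mice on α-tocopherol, old controls and young controls. Points are mice and bars are the mean ± SD (n = 5 each). For Sall1, Olfml3, Ly86 and Laptm5 all old mice lie above all young mice, and Cd14 of old control mouse 3 stands at 1989.0.

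Gas6 is a ligand of the TAM receptors AXL and MERTK, through which macrophages take up dead cells, and it is also made by other brain cells. Its signals were 5043.3, 5487.0, 4137.1, 4756.8 and 5267.4 in old controls, against 5928.0, 6010.5, 5476.2, 5732.0 and 6088.6 in young controls. Only old control mouse 2 reached the lowest young control (-0.25 ± 0.07 SE, adjusted p = 0.0196). Without old control mouse 3 it was -0.19 (adjusted p = 0.0624), and with equal medians -0.12 (adjusted p = 0.363). With the β-actin ratio in the fit it was -0.14 (adjusted p = 0.303), and with the mean of its probe sets -0.11 (adjusted p = 0.453). The receptor Mertk did not pass the test (0.18, adjusted p = 0.266), nor did Tgfbr1, the type I TGF-β receptor (0.04, adjusted p = 0.84).

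Among signalling regulators, Inpp5d, the phosphatase SHIP1 that removes PI3-kinase products, had signals of 663.8, 584.5, 724.2, 548.7 and 651.2 in old controls, against 298.6, 407.0, 489.2, 473.6 and 456.6 in young controls. Every old control was above every young control (0.57 ± 0.16 SE, adjusted p = 0.0116), and with the β-actin ratio in the fit the difference was 0.56 with an adjusted p of 0.0801. Ptprc, the leukocyte phosphatase CD45, had a difference of 0.40 (adjusted p = 0.141), with old control mouse 3 at 1037.4 and the other old controls at 382.6 to 562.0. Cd33, Ptpn6, Plcg2 and Vav1 differed by -0.22 to 0.09 and did not pass the test.

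Ly86, encoding MD-1, a partner of the Toll-like receptor homologue CD180, had the smallest adjusted p of the members. Its signals were 1809.1, 1634.7, 2374.2, 2088.2 and 2072.4 in old controls, against 1178.9, 1152.0, 1136.8, 1113.8 and 1315.4 in young controls. The lowest old control was clearly above the highest young control (0.74 ± 0.11 SE, adjusted p = 0.000172). Cd14, the lipopolysaccharide co-receptor, had signals of 723.8, 880.3, 1989.0, 918.6 and 702.9 in old controls, against 544.8, 575.0, 666.1, 597.1 and 446.5 in young controls. There was no overlap (0.76 ± 0.21 SE, adjusted p = 0.0114), and without old control mouse 3 the difference was 0.50 (adjusted p = 0.0238). The call was lost with the β-actin ratio in the fit (0.53, adjusted p = 0.189). Laptm5, a lysosomal membrane protein of leukocytes, had signals of 1631.7, 1492.1, 1599.0, 1524.8 and 1443.9 in old controls, against 1397.2, 1334.0, 1192.4, 1326.8 and 1069.9 in young controls. The groups did not overlap (0.29 ± 0.09 SE, adjusted p = 0.0217), but its other probe sets disagreed, as given in the account of probe sets. Its call was also lost with the β-actin ratio in the fit (0.23, adjusted p = 0.178), with the mean of all its probe sets (0.21, adjusted p = 0.15), and without young control mouse 3 (adjusted p = 0.0503) or 5 (adjusted p = 0.0706). Tlr2, Cybb (the gp91 subunit of NADPH oxidase) and Cd53 had differences of 0.10, 0.31 and 0.29 and did not pass the test. Cd86 averaged 181.4 ± 23.2 in old controls and 128.4 ± 55.5 in young controls (SD, n = 5 each) and was not tested.

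Markers of other macrophages and leukocytes were counted beside the microglial genes. Of 6 tested markers of border-associated macrophages, which live along vessels and meninges, none rose and 2 fell, Mrc1 (-0.61, adjusted p = 0.00443) and Pf4 (-0.42, adjusted p = 0.0413). Their summed signal over 9 markers was 2057.6 to 2447.8 in old controls and 2428.6 to 2788.3 in young controls. Of 3 tested monocyte and neutrophil markers none passed (0 also at an unadjusted p under 0.05), and without old control mouse 3 their sum of 1451.2 to 1773.8 in old controls compared with 1739.0 to 1974.4 in young controls. Only 2 of 11 measured T and NK cell markers were bright enough to be tested, and 1 of these rose (Cd4, 0.34, adjusted p = 0.0485). The summed signal over the 11 overlapped, with 1743 to 2402 in old controls and 1861 to 2387 in young controls. Of 4 B and plasma cell markers none passed (0 also at an unadjusted p under 0.05). Of the 8 neocortical excitatory neuron markers 3 rose, Slc17a7 (0.63, adjusted p = 0.000722), Cux2 (0.51, adjusted p = 0.00664) and Emx1 (0.45, adjusted p = 0.042), and none fell. Their summed signal was 22856.1 to 29769.6 in old controls and 19291.5 to 22923.4 in young controls. Of 11 meningeal markers Ptgds rose (0.31, adjusted p = 0.0174), and the sums were 29723.8 to 38505.8 in old controls and 26935.0 to 29147.9 in young controls, without overlap. These sums were mostly the signal of Ptgds, whose mean over all arrays was 25669, against 1572 for the next brightest, Igf2. The median difference over the 11 was -0.02, as over all genes. The part of these markers and of the array measures in the microglial differences was not tested.

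Genes of the same pathways were counted as well. Over 4 lists 6 of 61 tested genes rose and 3 fell (9.84% and 4.92%, against 12.4% and 10.4% of all genes). Of 14 ligands and partners of CSF1R, CX3CR1 and TGF-β receptors 1 rose, Tgfb1, encoding the cytokine that maintains microglia. It averaged 370.6 ± 52.0 in old controls and 213.3 ± 29.9 in young controls (SD, n = 5 each, 0.75 ± 0.17 SE, adjusted p = 0.00273), and its ranges of 282.5 to 417.5 and 175.8 to 254.9 did not overlap. Of 8 Toll-like receptor and NADPH oxidase partners 2 rose, Cyba, the p22 subunit that pairs with the product of Cybb (0.71 ± 0.15 SE, adjusted p = 0.00216), and Tlr3, a sensor of double-stranded RNA (0.58 ± 0.16 SE, adjusted p = 0.0112). Of 19 immunoreceptor signalling genes Blnk and Prkcb rose (0.39 and 0.17) and Prkcd and Dok2 fell (-0.53 and -0.49). Of 20 other microglia-enriched genes Cd68, a lysosomal protein, rose (0.45) and Bin1, a membrane-bending protein also abundant in neurons and oligodendrocytes, fell (-0.31). The medians of these lists were 0.15, 0.29, 0.05 and 0.04, against -0.02 for all genes.

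Both supplemented groups were also set against the young controls, which the comparisons share. In old mice on the mixture 10 members rose and none fell (27.0%, against 9.74% of all genes that rose and 9.59% that fell). In old mice on α-tocopherol 8 rose and Gas6 fell (21.6% higher, against 11.7% of all genes, with 10.5% lower). The medians over members were 0.21 for the mixture and 0.17 for α-tocopherol, against -0.02 over all genes in each. On α-tocopherol 4 of 11 meningeal markers and 2 of 8 neocortical excitatory neuron markers rose and none fell, with medians of 0.33 and 0.14. On the mixture 1 of the 11 rose, and of the 8 neuron markers 1 rose and 1 fell (medians 0.19 and -0.05). Of 6 border-associated macrophage markers none rose, and 1 fell on the mixture. The part of these markers in the member counts was not tested. Without young control mouse 5 the α-tocopherol count of members was 5 in place of 9, while all genes split 1244 higher and 1037 lower in place of 1566 and 1404.

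Sall1 lay above the young range in all 15 old mice. Its signals were 803.3, 887.8, 771.1, 677.1 and 543.9 in mixture mice and 669.9, 830.2, 698.9, 856.6 and 693.3 in α-tocopherol mice. Against young controls the log2 difference was 1.15 (adjusted p = 1.44e-05) on the mixture and 1.18 (adjusted p = 1.14e-05) on α-tocopherol, beside 0.72 in old controls. Olfml3, Ly86 and Laptm5 also lay above every young control in all 15 old mice. The share of all genes with this pattern over 15 mice was not counted. In single old groups, all 5 mice lay above all 5 young controls for 9 of 37 members in old controls, against 9.14% of all genes. On α-tocopherol it was 8 members, against 8.49%, and on the mixture 9, against 6.04%. Ly86 had 1603.9, 2157.4, 2510.8, 2253.1 and 1676.1 in mixture mice and 2012.0, 1691.8, 1715.5, 2108.5 and 2015.5 in α-tocopherol mice, with differences from young controls of 0.76 and 0.68. Olfml3 had 796.7, 704.5, 938.7, 856.5 and 671.8 in mixture mice and 780.7, 822.4, 751.8, 660.0 and 712.3 in α-tocopherol mice, with differences of 0.50 and 0.42. For Laptm5, signals in mixture mice were 1861.9, 1917.9, 1710.1, 1515.1 and 1555.3 and in α-tocopherol mice 1655.3, 1780.5, 1415.4, 1490.4 and 1674.0, with differences of 0.43 and 0.34. Its lowest supplemented mouse was only just above the highest young control. The Laptm5 probe set specific to the gene went the other way, with -0.30 on the mixture (adjusted p = 0.422) and -0.77 on α-tocopherol (adjusted p = 0.0306), and the mean of all its probe sets lost the call on α-tocopherol (0.23, adjusted p = 0.112).

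Csf1r, like the 4 genes above, passed against young controls in all 3 old groups. It had 8091.3, 8789.3, 10851.4, 7482.5 and 5814.6 in mixture mice and 9690.4, 8269.4, 10370.2, 8659.1 and 6945.8 in α-tocopherol mice. Mouse 5 of the mixture lay within the young range, and the differences from young controls were 0.45 and 0.57 (adjusted p = 0.0112 and 0.00219). With the mean of all its probe sets the call on the mixture was lost (0.23, adjusted p = 0.0988). Other members passed in 1 or 2 of the old groups, and whether the old groups differed is given by the tests between them. Cx3cr1 had 1828.4, 1274.5, 1691.1, 1365.1 and 726.1 in mixture mice and 1473.6, 1547.4, 1503.5, 1041.1 and 908.5 in α-tocopherol mice, and neither difference passed the test. The low mice were numbers 4 and 5 on α-tocopherol and number 5 on the mixture. Runx1, the haematopoietic factor, had 464.0, 521.4, 524.4, 484.5 and 617.6 in mixture mice, against 389.8, 352.5, 344.6, 305.7 and 294.1 in young controls. These did not overlap (0.61 ± 0.18 SE, adjusted p = 0.0188), while its second probe set had -0.30 and the mean of its probe sets 0.16 (adjusted p = 0.52). Fcer1g, the shared γ chain of Fc receptors, had 1266.6, 989.1, 1339.2, 880.2 and 928.1 in mixture mice, against 519.3, 616.7, 727.7, 1119.6 and 615.0 in young controls. Young control mouse 4 lay among the mixture mice (0.61 ± 0.17 SE, adjusted p = 0.0154), and without mixture mouse 3 the adjusted p was 0.0513.

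P2ry13, a purine receptor neighbouring P2ry12, had 757.1, 849.6, 966.8, 855.1 and 935.0 in mixture mice, against 799.9, 794.2, 673.2, 746.5 and 646.6 in young controls. Only mixture mouse 1 fell inside the young range (0.25 ± 0.09 SE, adjusted p = 0.048), and this call was lost without any 1 of 7 of the 10 mice (adjusted p up to 0.129) and under 7 of 15 other settings. Cd14 had 726.1, 818.8, 1014.2, 961.0 and 888.5 in mixture mice, all above the young controls (0.63, adjusted p = 0.0367), and 760.1, 849.0, 993.8, 547.7 and 605.0 in α-tocopherol mice, where mice 4 and 5 were in the young range. The mixture call for Cd14 was lost without any 1 of 8 of the 10 mice (adjusted p up to 0.0965) and under 2 of 15 other settings. Fcrls on α-tocopherol had 606.5, 679.2, 917.7, 619.6 and 649.8, all above the young controls (0.43, adjusted p = 0.0206), and without mouse 3 the adjusted p was 0.0713 and without young control mouse 5 it was 0.0587. Aif1 on α-tocopherol had 735.0, 717.1, 592.9, 644.4 and 736.7 (0.44, adjusted p = 0.0195), with mice 3 and 4 inside the young range, and the call was lost without young control mouse 2 or 5 (adjusted p up to 0.066). Gas6 on α-tocopherol had 4786.2, 4814.6, 4890.5, 5172.3 and 5205.1, all below the young controls (-0.23, adjusted p = 0.0286). That call was lost without any 1 of 6 of the 10 mice (adjusted p up to 0.064), with equal medians (-0.12, adjusted p = 0.345) and with the mean of its probe sets (-0.15, adjusted p = 0.274). Tgfbr1 passed on the mixture (0.44) and on α-tocopherol (0.31, adjusted p = 0.0464), where the call held without 1 mouse in 1 of 10 cases. Of all 15 old mice 12 were below the young range for Gas6, and 14 were above it for Csf1r and for Tgfbr1. The share of all genes with such counts was not taken.

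**Figure D3:**
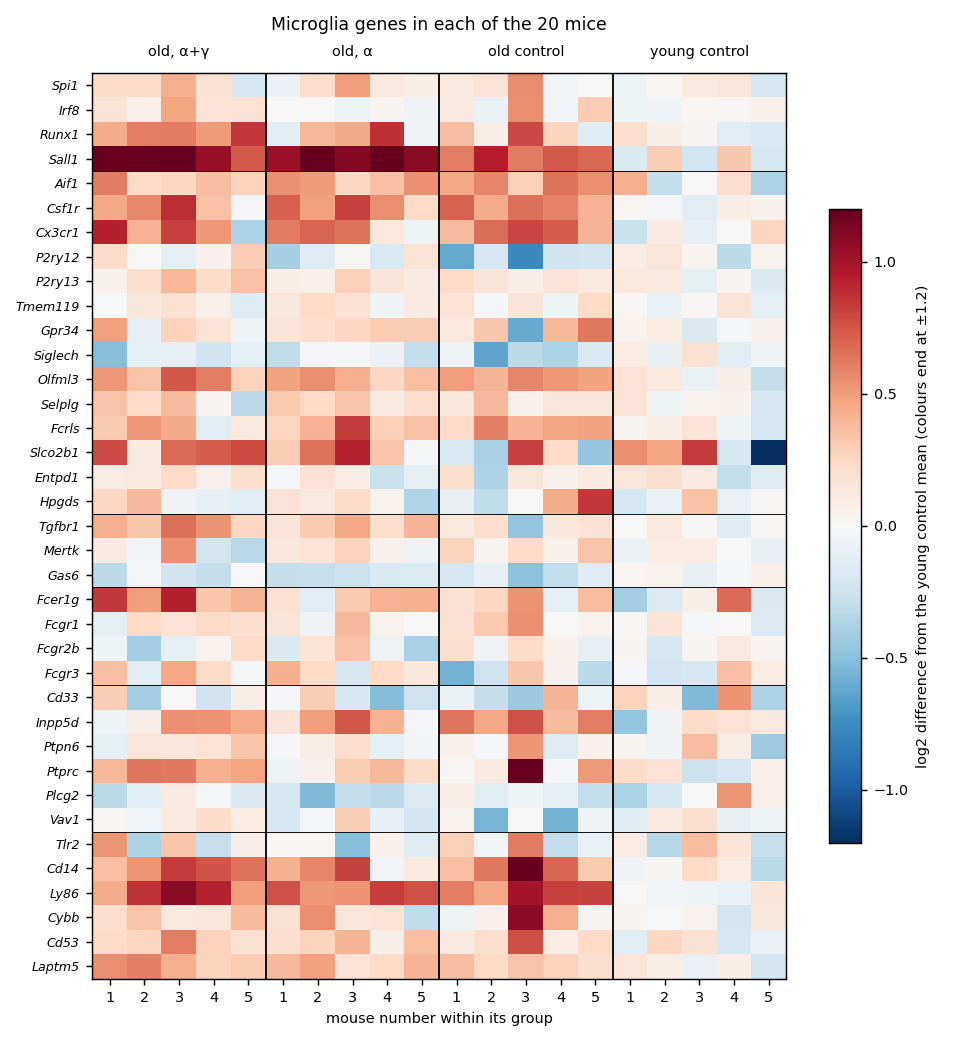
Log2 signal of each mouse minus the mean of the young controls (colour, red higher and blue lower, ending at ±1.2) for the 37 tested microglia genes, in rows by role. Columns are mice 1 to 5 of the groups on α- and γ-tocopherol, on α-tocopherol, of old controls and of young controls. Sall1 is red in all 15 old mice, and old control mouse 3 has the highest Ptprc, Cd14 and Cybb signals.

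Few of these genes differed between supplemented mice and old controls. On α-tocopherol no member passed the test, and none of the 13351 genes did (percent called 0). At an unadjusted p under 0.05 there were 3 members and 753 genes (5.64%), and the members' median was -0.02, against -0.01 for all genes. The 95% interval lay within a 1.5-fold change in either direction for 31 of 37 members and within a 2-fold change for 36. On the mixture 2 members rose and none fell (5.41% higher, against 1.36% of all genes higher and 3.16% lower), and the median was 0.02, against 0.00. The interval lay within 1.5-fold for 29 members and within 2-fold for 36. Both comparisons share the old controls.

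P2ry12 rose on the mixture. Its signals were 1853.8, 1580.4, 1476.1, 1648.2 and 1956.2 in mixture mice, against 1036.4, 1380.8, 924.7, 1344.9 and 1364.8 in old controls. The groups did not overlap (0.50 ± 0.12 SE, adjusted p = 0.024). On α-tocopherol the signals were 1205.1, 1429.0, 1606.7, 1403.5 and 1779.8, of which 4 were above every old control (0.30, adjusted p = 0.857, unadjusted p = 0.0228). The same old controls gave the lower value with age. Without old control mouse 3 the difference on the mixture was 0.41 (adjusted p = 0.0695). The call held in 7 of 10 fits without 1 mouse and under 9 of 14 other settings.

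Tgfbr1 was the other gene. It had 1680.9, 1554.3, 1966.5, 1814.3 and 1481.2 in mixture mice, against 1356.6, 1442.5, 890.2, 1368.1 and 1404.5 in old controls. The lowest mixture mouse was just above the highest old control (0.40 ± 0.11 SE, adjusted p = 0.0397), and without old control mouse 3, the lowest, it was 0.28 (adjusted p = 0.0903). The call held in 4 of 10 fits without 1 mouse and under 4 of 15 other settings, and with only the groups compared the adjusted p was 0.107. On α-tocopherol it had 1380.4, 1549.0, 1714.3, 1439.3 and 1651.6, and the groups overlapped (0.27, adjusted p = 0.857). Arrays of mixture mice and old controls also differed in RNA measures. The β-actin 3′/5′ ratio was 1.43 ± 0.14 in mixture mice and 2.04 ± 0.34 in old controls, and the signal of 18S ribosomal RNA was 507.3 ± 86.0 and 886.6 ± 155.2 (SD, n = 5 each, exact permutation p = 0.007937, adjusted 0.0381 for each). With the β-actin ratio in the fit, P2ry12 was 0.10 (adjusted p = 0.928) and Tgfbr1 0.17 (adjusted p = 0.881). Of the 8 neocortical excitatory neuron markers 2 fell on the mixture, Cux2 (-0.44, adjusted p = 0.0474) and Neurod2 (-0.34, adjusted p = 0.0269), and none rose. Their sums were 19654.5 to 24893.1 in mixture mice and 22856.1 to 29769.6 in old controls. Of 11 meningeal markers Islr and Ogn rose (0.44 and 0.60, adjusted p = 0.0307 and 0.0488), with sums, mostly of Ptgds, of 27705.1 to 33365.0 in mixture mice and 29723.8 to 38505.8 in old controls. The median difference over the 11 was 0.24, against 0.00 over all genes. Of 8 choroid plexus markers Kl rose (1.48, adjusted p = 0.0247). The part of these in the P2ry12 and Tgfbr1 differences was not tested.

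Sall1 had the largest difference on α-tocopherol that did not pass the test. All 5 α-tocopherol mice were above all 5 old controls, a pattern of 0.502% of all genes, with a log2 difference of 0.46 (unadjusted p = 0.0029, adjusted p = 0.829). On the mixture 4 of 5 mice were above every old control (0.43, adjusted p = 0.0794). Of the Fc receptor genes Fcgr3 and Fcer1g had differences of 0.34 and 0.36 on the mixture (adjusted p = 0.261 and 0.246). None of the tested genes of the lists of ligands and partners, immunoreceptor signalling, Toll-like receptor and oxidase partners or other microglia-enriched genes passed in either supplement comparison against old controls, out of 14, 19, 8 and 20 by limma. At an unadjusted p under 0.05 there were 3, 2, 0 and 3 of them on the mixture and 0 in each list on α-tocopherol.

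The 2 supplements were also set against each other. The total dose is the same per the sample labels, while the series' design text names only 500 mg/kg of each tocopherol. The 2 forms differ by a methyl group on the ring, present in α- and missing in γ-tocopherol. No member passed (percent called 0), and none of the 13351 genes did, with 1 member and 1163 genes (8.71%) at an unadjusted p under 0.05. The smallest adjusted p of a member was 0.557, for Fcer1g, with a difference of mixture minus α-tocopherol of 0.37 and a 95% interval of 0.01 to 0.72. For P2ry12 the interval was -0.05 to 0.45. It lay within a 1.5-fold change for 31 of 37 members and within a 2-fold change for all 37. In Irf8 all 5 mixture mice (414.4 to 553.9) were above all 5 α-tocopherol mice (377.8 to 404.8), and likewise in Ptprc (518.3 to 616.6 in mixture mice and 374.6 to 516.0 in α-tocopherol mice), a pattern of 0.367% of all genes, with adjusted p of 0.611 and 0.666.

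**Figure D4:**
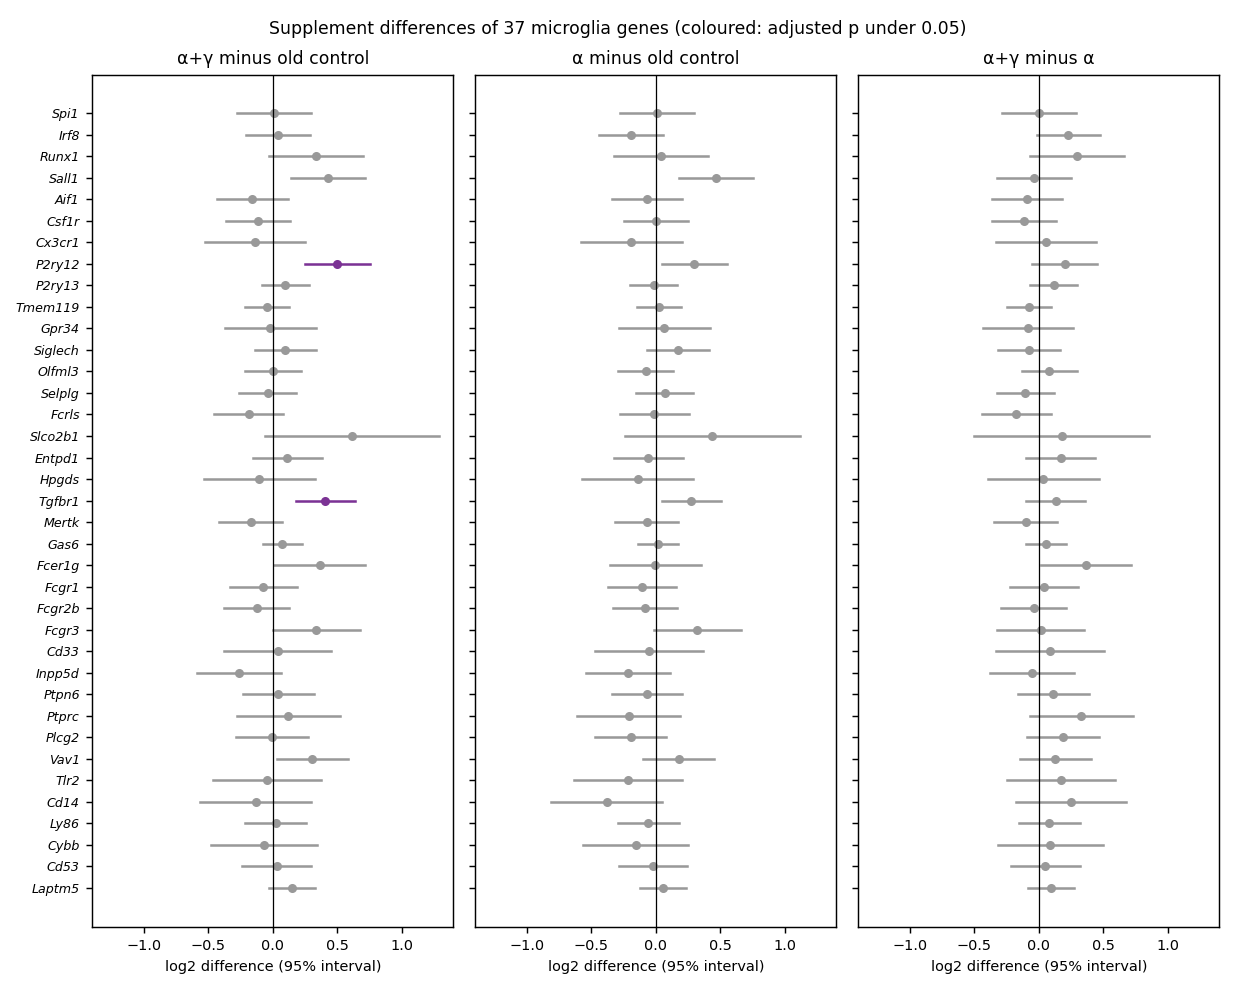
Log2 differences with 95% intervals (horizontal axes) for the 37 tested microglia genes on α- and γ-tocopherol minus old control, on α-tocopherol minus old control, and on the mixture minus α-tocopherol. P2ry12 and Tgfbr1, in colour in the first panel, are the 2 genes past an adjusted p of 0.05.

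Genes with several probe sets gave a check on the age differences within the same mice. For 11 members at least 2 probe sets were tested, and in old against young controls 5 of these had 1 direction throughout and 6 did not. Sall1 had 0.72 and 1.05, and its second probe set also passed the test (adjusted p = 0.0412). Cx3cr1 had 0.60 and 0.88 and Inpp5d 0.57 and 0.21. The 6 of mixed direction were Csf1r, Gas6, Irf8, Laptm5, Runx1 and Slco2b1. Gas6 had -0.25 and 0.03 (adjusted p = 0.939 for the second), Irf8 0.17 and -0.19, Runx1 0.27 and -0.13, and Slco2b1 0.00 and -0.03. Csf1r had 0.57, 0.44 and -0.33, of which the third did not pass (adjusted p = 0.0642). Laptm5 had 0.29, 1.13, 0.11 and -0.69, and the one whose name marks it as specific to the gene was the lower (adjusted p = 0.0491). Fcgr2b, the inhibitory Fc receptor, had 0.06 on its brightest probe set and 1.15, 0.80 and 0.50 on others, with adjusted p of 0.00603 and 0.0173 for the largest. Fcgr1, the high-affinity IgG receptor, had 0.22 and 0.63 (adjusted p = 0.0287 for the second). For Fc receptors the brightest probe sets thus gave no calls, and dimmer ones of Fcgr1 and Fcgr2b did.

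**Figure D5:**
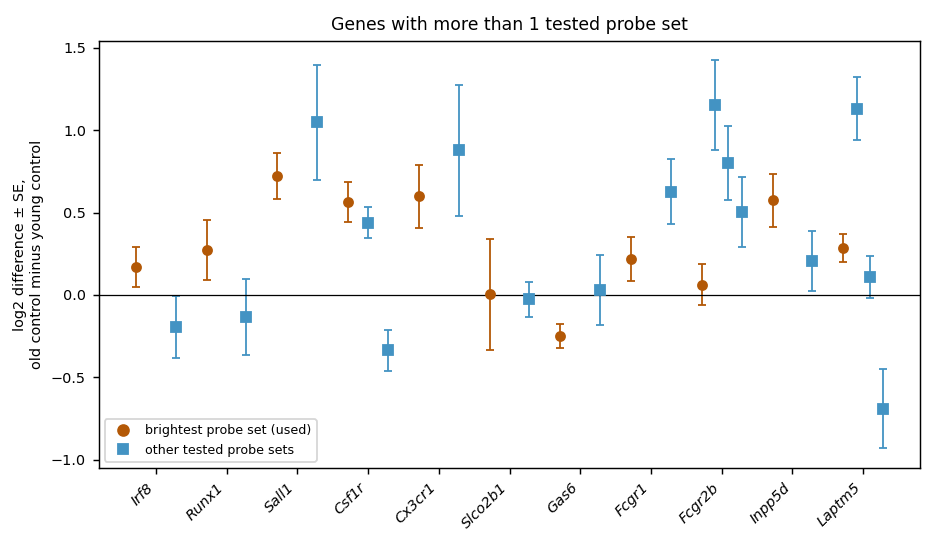
Log2 difference of old control minus young control (vertical axis, ± SE) for each tested probe set of the 11 microglia genes with more than 1. Orange circles are the brightest probe sets, used for the gene, and blue squares the others. Csf1r, Gas6, Irf8, Laptm5, Runx1 and Slco2b1 have probe sets on both sides of 0, and the dimmer probe sets of Fcgr2b lie between 0.50 and 1.15.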

How the data were processed

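RNA of 20 mice was hybridised to Affymetrix arrays. Per the labels' protocols, poly(A) RNA was selected and cDNA primed with oligo-dT. The deposited values are a linear signal intensity for each of 45101 probe sets, and per the submitters' processing notes GCOS was used. The sources used here do not give how background was removed or probes summarised. The mean of every deposited column, trimmed by 2%, was 1000, so a shift of all RNA would not be seen. Signals were used as deposited, as log2(signal + 16), which understates fold changes of dim genes. Probe sets in the top 60% by mean signal were kept (27022), and the brightest probe set with 1 symbol stood for its gene. For tests limma 3.58.1 was used with R 4.3.3 (lmFit, contrasts, eBayes with trend, all 20 arrays, two-sided, Benjamini-Hochberg over 13351 genes), and array measures by exact two-sided permutation tests. SE are those of the contrast. Scripts were tested on simulated data.

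The members, role groups and lists were chosen with earlier results of these data known. Values by mouse are given for members past the threshold in any of 6 comparisons and for Csf1r, Cx3cr1, P2ry12, Tmem119, Aif1 and Spi1; other members are given by count or value, and of other lists the members past the threshold with the smallest p. Alternatives covered scaling, pseudocount, filters, choice of probe set, model terms, the replicate number as a block, and leaving out each mouse. The number of arrays limits the precision.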

Additional observations from a re-analysis of the deposited data

Results flagged for a closer look

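Within groups of 5, a mouse was set apart when its gap to the nearest other mouse exceeded 0.71 of the group's range. Of 152 combinations of gene and group, 13 were of this kind. Chance gives about 1 in 20 for independent, normally distributed values, but genes measured in the same mouse are not independent. The share over all genes was not counted. Of the 13 combinations, 5 were in old controls, 4 in mixture mice, 1 in α-tocopherol mice and 3 in young controls. Old control mouse 3 was highest for Cd14 (1989.0, others 702.9 to 918.6) and Cd53 (1007.6, others 618.9 to 690.8) and lowest for Tgfbr1 (890.2, others 1356.6 to 1442.5). Old control mouse 2 was highest for Selplg (1708.7, others 1350.7 to 1441.6) and lowest for Entpd1 (320.1, others 435.2 to 486.2). In mixture mice, mouse 3 was highest for Irf8 (553.9, others 414.4 to 448.9) and Cd53 (897.5, others 664.4 to 708.1), mouse 2 lowest for Slco2b1 (755.2, others 1132.4 to 1215.5) and mouse 1 lowest for Fcgr1 (326.6, others 403.5 to 420.7). The α-tocopherol mouse 3 was highest for Fcrls (917.7, others 606.5 to 679.2). In young controls, the lowest mice were number 4 for P2ry12 (1279.3, others 1632.8 to 1764.9), number 2 for Fcgr2b (1307.6, others 1547.7 to 1634.1) and number 1 for Cd86 (33.6, others 124.1 to 167.7).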

How the results depend on the processing

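Over the 6 comparisons there were 33 calls of single members, recomputed under 15 other settings and without each mouse in turn. Of 819 such values 711 were still called, 104 were not and 4 had the opposite sign. The 4 came from leaving out probe sets whose names mark probes shared by several transcripts, which may be of the same gene. Laptm5 was then -0.69 in old against young controls, -0.77 on α-tocopherol and -0.30 on the mixture against young controls. Runx1 was then -0.30 on the mixture against young controls. In old against young controls the count of 12 was 5 (5 higher, 0 lower) with the β-actin ratio in the fit, and with equal array medians it was 14 higher and 0 lower, while all genes split 3075 higher and 449 lower in place of 1656 and 1383. On the mixture against old controls the count of 2 was 0 after quantile or cyclic loess scaling, with equal medians, without shared-probe sets (P2ry12 then has no probe set), with the β-actin ratio, and without the array least like its group in each group, an alternative chosen after seeing the data. All genes split 181 higher and 422 lower in the main fit. They split 31 and 52 after quantile scaling, 39 and 52 after cyclic loess scaling, and 34 and 644 with equal medians. The split was 100 and 143 without shared-probe sets, 0 and 0 with the β-actin ratio, and 9 and 31 without the least-like arrays. The count of members was 1 with no filter on dim probe sets, with the mean of all probe sets, with only the groups compared, and with no intensity trend. In that order all genes split 118 and 301, 113 and 172, 70 and 249, and 92 and 219. Leaving out 1 mouse gave counts of 9 to 12 in old against young controls (9 without old control mouse 3), 0 to 2 on the mixture against old controls (0 without old control mouse 3 or mixture mouse 5), 5 to 10 on α-tocopherol against young controls, 7 to 10 on the mixture against young controls, and 0 in the other 2. On the mixture against old controls all genes split 53 and 186 without old control mouse 3, and 44 and 142 without mixture mouse 5. The difference in median signal between old and young controls was -34.66 to -26.61 without 1 mouse in turn, and the adjusted p missed the threshold without any 1 of the young mice. The exact test has fewer samples when any mouse, young or old, is left out. Causes of the missed threshold were not tested.

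Over all genes tested, with group means removed, same-numbered mice had correlations of -0.124 to 0.196 over 30 pairs. Of these, 5 were over 0.1, and 8 were the best partner among the 5 mice of the other group. Correlations of differently numbered mice are not given, and whether 8 of 30 is more than chance was not tested. Mouse 3 of the α-tocopherol group had 0.196 with that of old controls, 0.162 with that of young controls and 0.117 with that of the mixture. The other pairs of mice numbered 3 had -0.010 to 0.082. The labels give the replicate number only as a sample number, and a shared handling of same-numbered mice was not tested. With the replicate number as a block the counts were 13 in old against young controls, 0 on α-tocopherol and 2 on the mixture against old controls, 0 between the supplements, and 8 and 10 on α-tocopherol and the mixture against young controls. Of all genes, 13.1% rose and 11.4% fell in old against young controls, and 1.63% and 3.58% on the mixture against old controls. Against young controls it was 12.2% and 11.3% on α-tocopherol, and 10.1% and 9.99% on the mixture. The block changed single calls: Tgfbr1 was lost and Sall1 gained on the mixture against old controls (adjusted p = 0.054 and 0.0382), Tgfbr1 was lost on α-tocopherol against young controls (0.0663), P2ry13 was lost and Cd53 gained on the mixture against young controls (0.0675 and 0.0313), and Cd53 was gained in old against young controls (0.0421).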

Other observations

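Choroid plexus markers varied widely between mice. Their summed signal over 9 genes was 32402.1 to 39466.7 in mixture mice, 18851.2 to 48596.5 in α-tocopherol mice, 10845.7 to 52617.3 in old controls and 28955.7 to 42781.2 in young controls. These sums were mostly the signal of Ttr, whose mean over all arrays was 28981. Kl, an ageing-linked gene of the choroid plexus, was lower in old than in young controls (log2 difference -1.05, adjusted p = 0.041) and higher on the mixture than in old controls (1.48, adjusted p = 0.0247), and these comparisons share the old controls. With the β-actin ratio in the fit no gene passed on the mixture against old controls, so the Kl call there was lost. Itgb2, the β2 integrin chain of leukocytes, rose in both supplemented groups against young controls (0.94 on the mixture, adjusted p = 0.0159, and 0.86 on α-tocopherol, adjusted p = 0.0219). Axl, a TAM receptor that binds GAS6, rose in both as well (0.59, adjusted p = 0.00391, and 0.48, adjusted p = 0.0128). Neither gene passed the test in old against young controls or between supplemented mice and old controls. Mice numbered 3 were the highest of their group for 17 of 37 members on the mixture (45.9%, against 22.9% of all genes), 16 on α-tocopherol (43.2%, against 27.5%) and 18 in old controls (48.6%, against 26.7%), and for 9 in young controls (24.3%, against 17.4%).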
